A study of Mus musculus with 36 samples.

Results

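Neurl3 and Trim17 are mouse genes that encode ubiquitin ligases of the RING type. The pair was chosen by the size of its rise under poly(I:C) in wild-type fibroblast lines, and it makes up 2 of the 49585 genes counted in each library. Neurl3 (ENSMUSG00000047180) lies on the minus strand of chromosome 1, from 36264597 to 36274679 in GRCm38. Trim17 (ENSMUSG00000036964) lies on the plus strand of chromosome 11, from 58954685 to 58973098. Because wild-type lines under poly(I:C) chose the pair, every difference that involves those libraries is given for the pair as a description, with no test. Tests are given for lines that carry the N129D allele of Tbk1, which the choice did not use.

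RING ligases hold a ubiquitin-charged enzyme beside a target protein and so set which proteins are tagged for degradation or for signalling. Neurl3 belongs to the Neuralized family, whose founding member in the fly acts on ligands of Notch, and it was first described as a gene induced by inflammation in lung epithelium. It has been linked to ubiquitination of the interferon regulatory factor IRF7. Trim17 belongs to the tripartite motif (TRIM) family, which includes several ligases of antiviral signalling, and is known for its part in neuronal apoptosis through the survival protein MCL1 and for its interaction with NFAT factors and with TRIM41. Poly(I:C) is a man-made double-stranded RNA that cells sense as they do viral RNA. The kinase TBK1 then activates IRF3, the factor that switches on the interferon beta gene Ifnb1. The factor NF-kB is activated by the same sensors and drives inflammatory genes such as Tnfaip3.

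Messenger RNA was sequenced from mouse embryonic fibroblasts cultured in DMEM. There were 3 wild-type (WT) lines (E1.5, E2.1, E2.7). The 4 heterozygous (het) lines, with 1 N129D copy of Tbk1, were E1.3, E2.5, E2.6 and also E2.8, and the 3 homozygous (hom) lines, with N129D on both copies, were E1.4, E2.2 and E2.9. Each line gave 1 untreated library, 1 library after 4 h of poly(I:C) and 1 library after 4 h of antimycin with oligomycin (AO). AO blocks the respiratory chain and the ATP synthase of mitochondria. The knock-in changes the kinase in every cell of a line, and each line is 1 replicate. The 9 groups hold 30 libraries, and a further 6 libraries of WT line E1.5 carry a high or low density label.

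In the 30 libraries without a density label 3689144 to 14879227 counts were assigned to genes. Levels are given as CPM, which are counts brought to a common library size after TMM scaling. Summed marker levels are instead CPM of the library total, without TMM scaling. Summed levels of 13 fibroblast markers ran from 7950 to 19246 CPM, and all 13 were detected over the 30 libraries. Summed levels of 15 macrophage markers were 158 to 267 CPM in the libraries of hom line E2.9 and 36.9 to 60.5 CPM in those of het line E2.6, against 2.95 to 11.2 CPM in all other lines. Of these 15 markers 0 were at 0 in all het or all hom libraries of a treatment, and 5 to 6 were at 0 in all 3 WT libraries of one. Summed lymphoid markers stayed between 0 and 0.306 CPM, and 4 of those 6 markers were at 0 throughout. Summed levels of 8 epithelial markers ran from 3.27 to 84.6 CPM. They were highest in het line E2.5, at 84.6 CPM untreated, 82.4 CPM under poly(I:C) and 68.97 CPM under AO. Outside the het lines they reached at most 34.1 CPM, in WT line E2.7 under poly(I:C). Endothelial markers reached at most 41.3 CPM, in het line E2.6, and neuronal markers 220.2 CPM, in hom line E1.4. Untreated, neuronal markers ran from 139.8 to 201.1 CPM in hom, 85.2 to 107.9 in het and 97.9 to 140.1 in WT lines. Under poly(I:C) they ran from 139.0 to 220.2, 81.7 to 114.8 and 109.6 to 156.0 CPM in that order. Under AO hom and het lines overlapped, at 68.7 to 85.4 and 57.9 to 79.0 CPM. The part of the neuronal signal in differences between hom and het lines was not tested. In such bulk samples, a change in the share of cells that express a gene and a change in RNA per cell cannot be told apart.

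The RefSeq promoter table (GRCm38.p6, 250 bases before to 50 bases after each gene's start) held 1 of the pair, Neurl3; Trim17 had no entry. The Neurl3 window holds a match to the strict kappa B consensus, the site that NF-kB dimers bind. It stands at -110 to -101 from the RefSeq start and reads on the strand opposite to the gene. The stretches below are shown so that this site can be compared with the same consensus in promoters of 5 readout genes of the poly(I:C) response. They are written 5' to 3' on the strand of the gene, with the consensus match in capitals.
Neurl3: gaggtcatggGGAAAGTCCCggatatcgtc
Tnfaip3: gactcacgcgGGGACACCCCggggcgggac
Nfkbia: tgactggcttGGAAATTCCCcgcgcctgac
Il6: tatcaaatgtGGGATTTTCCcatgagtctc
Ifnb1: aactgaaagtGGGAAATTCCtctgaggcag
Cxcl10: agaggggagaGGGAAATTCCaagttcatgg
In the order given, the stretches are chr1:36273516-36273545 (minus strand), chr10:19015516-19015545 (minus), chr12:55492657-55492686 (minus), chr5:30013060-30013089 (plus), chr4:88522891-88522920 (minus) and chr5:92349029-92349058 (minus). The Neurl3 stretch also falls within an annotated exon of the gene.

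Across all 32544 promoters searched on both strands, 4.53% held the strict kappa B consensus, and 7 of the 11 readout genes with an entry did. The looser form GGGNNNNNCC, which overlaps the strict match, was also present in the Neurl3 window, but 51.0% of all promoters hold it. No match was found there to the interferon response element GAAANNGAAA (3.45% of all promoters), to the AP-1 site TGANTCA (7.79%) or to the serum response element (1.64%). These matches describe the letters in 1 window and show no binding.

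In untreated WT lines Neurl3 stood at 1.43 CPM in E1.5, 2.28 in E2.1 and 1.09 in E2.7. After poly(I:C) the same lines reached 49.0, 42.2 and 55.8 CPM. All 3 treated libraries were far above all 3 untreated ones and close to one another. The log2 rise was 4.88 ± 0.79 (SE), and pooled counts rose from 30 to 826, a fold of 27.2 (95% exact counting interval 18.9 to 40.6). These intervals hold counting error alone, because no molecular identifiers were counted and reads need not be independent molecules.

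Trim17 was near the limit of detection in untreated WT lines, at 0.159, 0.142 and 0.652 CPM, or 5 counts in all. After poly(I:C) the levels were 14.95 CPM in E1.5, 3.45 CPM in E2.1 and 9.15 CPM in E2.7. The treated libraries did not overlap the untreated ones, but unlike those of Neurl3 they spread widely, with E1.5 highest and E2.1 lowest. The log2 rise was 4.91 ± 1.05 (SE) and the fold of pooled counts 33.8 (95% exact counting interval 14.2 to 105). Among the 13364 genes tested, Trim17 had the 22nd and Neurl3 the 24th largest log2 rise in WT lines, where 1.29% of genes were called higher (Benjamini-Hochberg adjusted p under 0.05 in edgeR's quasi-likelihood test). These ranks come from the contrast that chose the pair, so they describe it and test nothing.

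**Figure D1:**
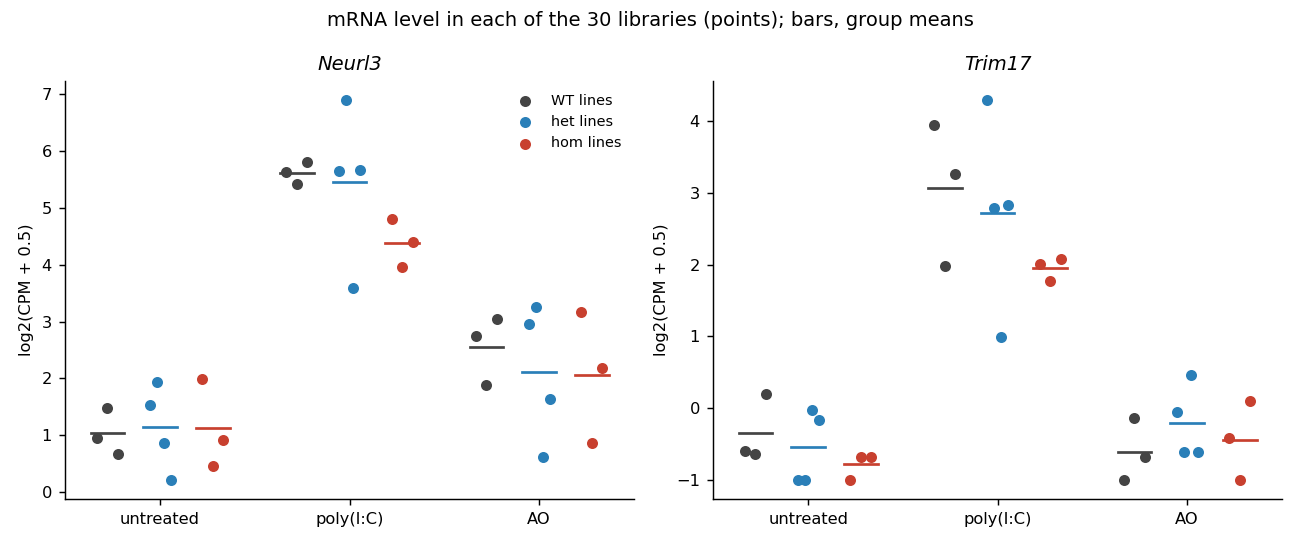
Level of Neurl3 (left) and Trim17 (right) as log2(CPM + 0.5), 1 point a library, for WT (dark grey), het (blue) and hom (red) lines, untreated or treated with poly(I:C) or AO; horizontal bars are group means. The 10 poly(I:C) libraries lie at or above 11.5 CPM for Neurl3 and 1.48 CPM for Trim17, and the 20 others at or below 9.08 and 0.884 CPM.

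In het lines, which the choice did not use, untreated Neurl3 stood at 2.41, 3.33, 1.32 and 0.658 CPM, in the order E1.3, E2.5, E2.6, E2.8. After poly(I:C) these lines reached 49.8, 119, 11.5 and 50.6 CPM. The groups did not overlap, E2.5 was the highest of all 30 libraries and E2.6 the lowest of the poly(I:C) libraries. Neurl3 rose by 4.95 ± 0.65 on the log2 scale (SE; adjusted p = 0.000113, edgeR quasi-likelihood), in 4 of 4 lines.

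Trim17 was at 0 in untreated het lines E1.3 and E2.5 and at 0.480 and 0.395 CPM in E2.6 and E2.8. The poly(I:C) libraries held 19.1, 6.39, 1.48 and 6.61 CPM in that order of lines. The line with the most Trim17 was E1.3 and not E2.5, where Neurl3 was highest, whereas E2.6 was lowest for both genes. Trim17 rose by 5.03 ± 0.91 (log2, SE; adjusted p = 0.000899, edgeR quasi-likelihood), in 4 of 4 lines. Trim17 passed the filter on low counts only through the poly(I:C) libraries, since the 20 others lay at or below 0.884 CPM. The WT libraries that chose the pair are among those poly(I:C) libraries. In a fit of the het groups alone Trim17 failed the filter and had no value. In het lines 2.24% of all genes were called higher and 2.43% lower.

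Line E2.6 carried the raised macrophage markers given above, 53.7 CPM under poly(I:C) against 4.81 to 8.77 CPM in the other het lines. It was also low for Cxcl10 (316 CPM against 837 to 3658 CPM) and for Ifnb1 (7.41 against 10.8 to 50.7 CPM). Tnfaip3, however, stood in E2.6 at 202 CPM, within the 198 to 344 CPM of the other het lines. Line E2.5, highest for Neurl3, carried the most epithelial markers, 82.4 CPM under poly(I:C). The part of the macrophage or the epithelial signal in these levels was not tested. Without E2.6 both genes still passed in het lines, with log2 rises of 5.14 for Neurl3 and 6.01 for Trim17 (adjusted p = 5.15e-05 and 0.000349, edgeR quasi-likelihood).

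In hom lines Neurl3 stood untreated at 3.45 CPM in E1.4, 0.878 in E2.2 and 1.39 in E2.9. With poly(I:C) the same lines reached 27.4, 14.99 and 20.7 CPM. Each line rose and the groups did not overlap, yet all 3 treated levels were below the lowest WT level of 42.2 CPM. Neurl3 rose by 3.46 ± 0.74 (log2, SE; adjusted p = 0.0231, edgeR quasi-likelihood). Pooled counts rose from 46 to 388, a fold of 10.8 (95% exact counting interval 7.91 to 14.9).

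Trim17 in untreated hom lines had 0, 1 and 1 counts, which is 0, 0.125 and 0.126 CPM in that order. The poly(I:C) libraries had 3.52, 2.901 and 3.74 CPM, or 27, 12 and 21 counts. The treated hom libraries lay close together, near the lowest WT line. Trim17 rose by 5.07 ± 1.43 (log2, SE; adjusted p = 0.0228, edgeR quasi-likelihood), in 3 of 3 lines. The fold of pooled counts, 60 against 2, was 38.3, and with so few untreated counts its 95% exact counting interval runs from 10.1 to 323.

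In hom lines 0.554% of all genes were called higher and 0.726% lower. With the line as a block, which sets each treated library against the untreated one of its line, Neurl3 rose by 3.50 ± 0.41 (log2, SE). Trim17 rose by 5.07 ± 1.74 in the same fit. Both passed (adjusted p = 1.51e-05 and 0.00463, edgeR quasi-likelihood), where 5.71% of all genes were called higher. Without the block, neither hom call held in all fits that left out 1 line. Without E2.2 the adjusted p was 0.189 for Neurl3 and 0.175 for Trim17, and without E2.9, the line with most macrophage markers, 0.27 and 0.236 (edgeR quasi-likelihood), while the log2 rises stayed between 3.30 and 5.50. Without E1.4 Neurl3 passed (adjusted p = 0.024) and Trim17 did not (adjusted p = 0.0567, edgeR quasi-likelihood).

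Read line by line, as log2((CPM + 0.5) / (CPM + 0.5)) against the untreated library of the same line, Neurl3 rose under poly(I:C) by 2.72 to 5.47 in the 7 het and hom lines and by 3.94 to 5.15 in the 3 WT lines. The mean over the 7 lines was 3.87 ± 1.04 (SD, n = 7; exact two-sided sign-flip permutation test p = 0.015625, the smallest that 7 lines can give; 0.03125 adjusted over 4 tests). Trim17 rose by 1.02 to 5.30 in the 7 lines, with a mean of 3.04 ± 1.303 (SD, n = 7; exact sign-flip permutation p = 0.015625, adjusted 0.03125). Every one of the 7 lines moved up for both genes. The pseudocount of 0.5 CPM holds down the change of Trim17, whose untreated levels are near 0.

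**Figure D2:**
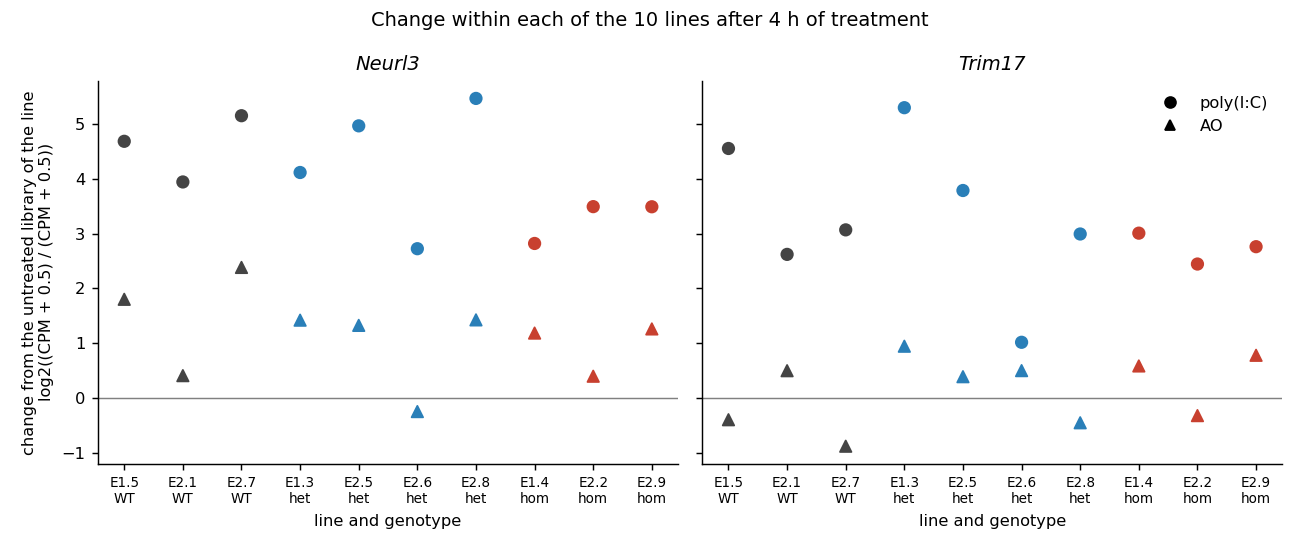
Change of Neurl3 (left) and Trim17 (right) within each of the 10 lines, on a log2 scale with a pseudocount of 0.5 CPM; circles are poly(I:C) and triangles AO, each against the untreated library of that line, and colours are the genotypes named on the axis. All circles lie above 0, from 2.72 to 5.47 for Neurl3 and from 1.02 to 5.30 for Trim17.

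Ordered by group, mean levels of Neurl3 ran from 57.7 ± 44.7 CPM in het (SD, n = 4), 49.0 ± 6.81 in WT (SD, n = 3) and 21.001 ± 6.19 CPM in hom (SD, n = 3) with poly(I:C), through 5.72 ± 2.33, 4.997 ± 3.80 and 4.60 ± 3.61 CPM in WT, het and hom lines under AO, to 1.93 ± 1.18, 1.90 ± 1.36 and 1.60 ± 0.614 CPM in untreated het, hom and WT lines. Neighbours in this order overlapped except WT and hom lines under poly(I:C) and the step from poly(I:C) to AO. For Trim17, the WT, het and hom groups with poly(I:C) had 9.18 ± 5.75, 8.41 ± 7.54 and 3.39 ± 0.434 CPM, and the other 6 group means lay between 0.0838 and 0.413 CPM. Libraries overlapped between neighbours in the Trim17 order except between hom lines with poly(I:C) and the next group, het lines under AO. Per kilobase of annotated exon, Neurl3 was the more abundant under poly(I:C), at 15.2 against 2.46 CPM per kb in WT and 6.53 against 0.906 CPM per kb in hom lines.

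Under AO, Neurl3 was at 6.22 CPM in WT line E1.5, 3.18 in E2.1 and 7.76 in E2.7. Among het lines it was at 7.27 CPM in E1.3, 9.08 in E2.5, 1.03 in E2.6 and 2.61 in E2.8, and among hom lines at 8.47 CPM in E1.4, 1.31 in E2.2 and 4.01 in E2.9. The level was above that of the untreated library in 9 of 10 lines, all but E2.6, but the AO and untreated groups overlapped in het and in hom lines. In het lines the log2 difference was 1.43 ± 0.68 (SE; adjusted p = 0.202) and in hom lines 1.26 ± 0.80 (adjusted p = 0.334, edgeR quasi-likelihood). With the line as a block the same differences were 1.32 ± 0.41 in het lines, which passed (adjusted p = 0.0163), and 1.25 ± 0.48 in hom lines, which did not (adjusted p = 0.0518, edgeR quasi-likelihood). Over the 7 het and hom lines the mean change was 0.96 ± 0.64 (SD, n = 7; higher in 6 of 7; exact sign-flip permutation p = 0.03125, adjusted 0.0417).

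These AO changes stand against a wide response. Without the block 6.17% of all genes were called higher under AO in het and 7.36% in hom lines, and with it 12.9% and 14.6%. Hmox1, the haem oxygenase gene induced by oxidative stress, rose by 2.64 ± 0.26 in het and 2.76 ± 0.31 in hom lines (log2, SE; adjusted p = 3.55e-06 and 9.99e-06, edgeR quasi-likelihood).

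Trim17 under AO had between 0 and 6 counts in each library. Its levels were 0, 0.406 and 0.125 CPM in WT lines, 0.462, 0.154, 0.884 and 0.153 CPM in het lines and 0.249, 0 and 0.573 CPM in hom lines, in the line order used above. These levels overlapped the untreated ones in all 3 genotypes. The log2 differences were 0.75 ± 1.03 in het lines (SE; adjusted p = 0.736) and 1.63 ± 1.66 in hom lines (adjusted p = 0.515, edgeR quasi-likelihood), so a change was not detectable at this depth. The mean change over the 7 lines was 0.34 ± 0.53 (SD, n = 7; higher in 5 of 7; exact sign-flip permutation p = 0.125).

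Whether the mutant kinase altered the 2 genes was read from hom against het lines, since the choice used WT libraries. Untreated, the log2 difference was 0.04 ± 0.79 for Neurl3 and -1.35 ± 1.54 for Trim17 (SE; adjusted p = 1.0 for both, edgeR quasi-likelihood), where 0.015% of all genes were called. After poly(I:C) the mean Neurl3 level in hom lines was 36.4% of that in het lines, and that of Trim17 40.3%. The groups overlapped because of E2.6: without it, the lowest het levels were 49.8 CPM for Neurl3 and 6.39 CPM for Trim17, above all 3 hom lines. The log2 differences were -1.45 ± 0.60 for Neurl3 (95% interval -2.62 to -0.29; adjusted p = 0.743) and -1.31 ± 0.71 for Trim17 (-2.69 to 0.08; adjusted p = 1.0, edgeR quasi-likelihood). Neither passed, and 0.651% of all genes were called lower in hom than in het lines. Single het lines moved both values: without E2.5 the Neurl3 difference was -0.83, without E1.3 that of Trim17 was -0.52, and without E2.6 they were -1.79 and -1.65 (adjusted p = 0.125 and 0.562, edgeR quasi-likelihood).

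The change from untreated to poly(I:C) was smaller in hom than in het lines by 1.49 ± 0.99 log2 units for Neurl3 and differed by 0.04 ± 1.69 for Trim17 (SE; adjusted p = 1.0 for both, edgeR quasi-likelihood). In that comparison 0.0% of the 13364 genes were called, 98 had an unadjusted p under 0.05, and DESeq2 called 0. With the line as a block, Neurl3 differed by -1.29 ± 0.55 (SE, 95% interval -2.36 to -0.21, unadjusted p = 0.0312, edgeR quasi-likelihood). That interval lies below 0, but the difference did not pass after adjustment over all genes. Trim17 differed by 0.30 ± 1.99 (SE) with the block and did not pass. Against WT lines, given as a description, hom lines under poly(I:C) held 42.9% of the Neurl3 level, with no overlap, and 36.9% of the Trim17 level, with overlap through WT line E2.1. The share of all genes with no overlap between hom and WT libraries is not given here. WT lines under poly(I:C) chose the pair for its rise, which favours a higher WT level. The log2 differences from WT were -1.21 ± 0.64 and -1.44 ± 0.75 (SE). Het lines differed from WT by 0.24 ± 0.59 and -0.13 ± 0.68 (SE).

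Readout genes of the poly(I:C) response differed widely between hom and het lines in how far apart they stood. Ifnb1 reached 18.5 ± 7.98 CPM in WT (SD, n = 3), 21.9 ± 19.8 in het (SD, n = 4) and 0.265 ± 0.267 CPM in the hom group (SD, n = 3) with poly(I:C), from no counts in any untreated line. Of 15 readouts, 7 were lower in hom than in het lines under poly(I:C): Ifnb1, the chemokine genes Ccl5 (-3.41 ± 0.60, log2, SE) and Cxcl10 (-3.50 ± 0.60), the interferon-stimulated genes Isg15 (-3.63 ± 0.66) and Ifit1 (-5.08 ± 0.71), the cytokine gene Il6 (-3.44 ± 0.55), and Zfp36 (-1.10 ± 0.21), which encodes an mRNA decay factor. Adjusted p for these ran from 0.00836 to 0.0199 (edgeR quasi-likelihood), where 0.651% of all genes were lower. Without any 1 of the 3 hom lines, or in a fit of the compared groups alone, 0 genes were called in this comparison, these 7 included. Isg15 and Ifit1 were already low in untreated hom lines, at 4.68 to 9.54 and 1.36 to 4.89 CPM against 43.7 to 328 and 45.9 to 323 CPM in het lines. Ccl5 and Cxcl10 were low untreated too, with means of 1.08 and 9.60 CPM in hom against 26.8 and 79.3 CPM in het lines. Their untreated log2 differences were -4.60 ± 0.87 and -3.04 ± 0.66 (SE; adjusted p = 0.0499 and 0.329, edgeR quasi-likelihood). Under poly(I:C) the mean rose 11.6-fold in hom and 4.83-fold in het lines for Ccl5, and 13.99- and 19.2-fold for Cxcl10. Il6 and Zfp36 differed untreated by 0.51 ± 0.69 and 0.02 ± 0.22 (log2, SE).

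The NF-kB targets Tnfaip3, Nfkbia, Ccl2 and Cxcl1 overlapped between hom and het lines, with log2 differences of -0.56 ± 0.43, -0.01 ± 0.31, -0.46 ± 0.53 and -0.52 ± 0.70 (SE; adjusted p = 1.0 for each, edgeR quasi-likelihood). This did not hold for every gene with a kappa B match. Il6, whose match is shown above, did not overlap and differed by -3.44 ± 0.55 (SE). The immediate-early genes Egr1 and Fos differed by -0.67 ± 0.33 and -0.31 ± 0.38 (adjusted p = 0.948 and 1.0, edgeR quasi-likelihood). With all lines, Neurl3 and Trim17 differed more than Tnfaip3, Nfkbia, Ccl2, Cxcl1, Egr1 and Fos. They differed less than Ifnb1, Ccl5, Cxcl10, Isg15, Ifit1 and Il6. That place rests on single lines. Without E1.3 the Trim17 difference of -0.52 is within the range of Tnfaip3, Nfkbia, Ccl2 and Cxcl1, and without E2.5 that of Neurl3 is -0.83. Differences between the pair and either set were not tested.

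**Figure D3:**
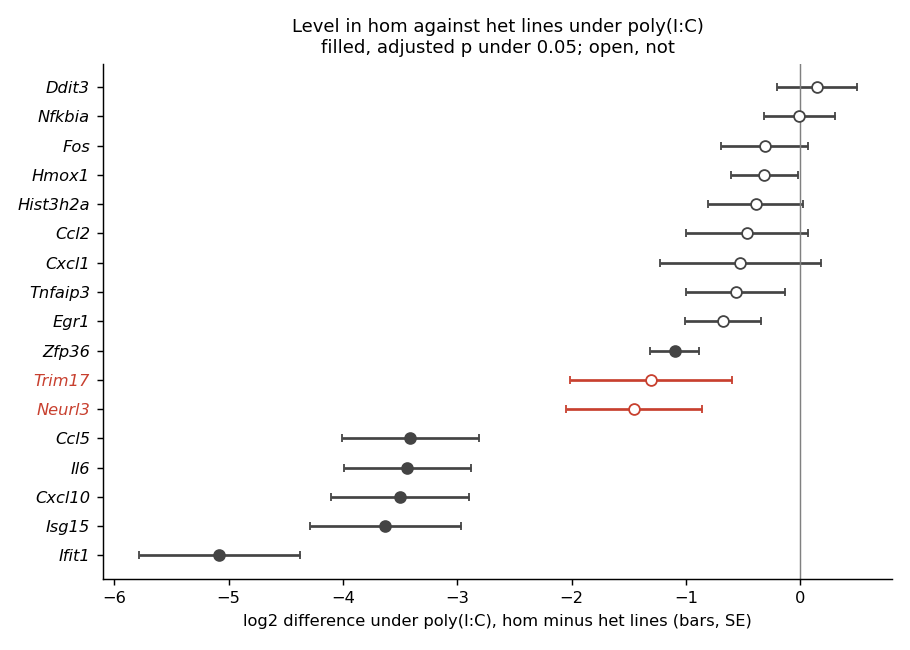
Log2 difference in level between hom and het lines under poly(I:C), with SE, for Neurl3 and Trim17 (red), 14 readouts and Hist3h2a (grey); filled points have an adjusted p under 0.05. Neurl3 (-1.45) and Trim17 (-1.31) fall in the gap between Ccl5 (-3.41) and Zfp36 (-1.10); Ifnb1, with no counts in untreated lines, is not drawn.

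Over the 30 libraries, the 6 genes whose log2 level ran most like that of Neurl3 were Tnfaip3 (Pearson r = 0.936), Il6 (0.908), Rnd1 (0.900), Vars (0.893), Hspa8 (0.881) and Ccl2 (0.880), among 12054 genes whose log2(CPM + 0.5) averaged 1 or more. Tnfaip3 encodes the ubiquitin-editing enzyme A20, Rnd1 a small GTPase, Vars valyl-tRNA synthetase, Hspa8 a heat shock cognate protein and Ccl2 a chemokine. Tnfaip3 averaged 154 ± 32.5, 236 ± 71.9 and 159 ± 63.9 CPM under poly(I:C) in WT, het and hom lines (SD, n = 3, 4 and 3).

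For Trim17 the 6 were Brd2 (0.938), Hist1h1c (0.921), Hist1h2be (0.917), Rhob (0.914), Hist3h2a (0.904) and Rnd3 (0.903). Brd2 encodes a reader of acetylated histones, Hist1h1c a linker histone, Hist1h2be and Hist3h2a core histones, and Rhob and Rnd3 small GTPases. Hist1h2be stood under poly(I:C) at 9.42 ± 4.09, 9.09 ± 3.92 and 5.59 ± 0.813 CPM in WT, het and hom lines (SD, n = 3, 4 and 3), from 0.917, 0.903 and 0.415 CPM untreated. The 2 lists share no gene. Neurl3 ranked 19th in the order of Trim17 (r = 0.837), whereas Trim17 itself was too low to enter the ranked genes. These correlations pool 3 treatments and share libraries, depth and lines, so they describe the data and carry no p.

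**Figure D4:**
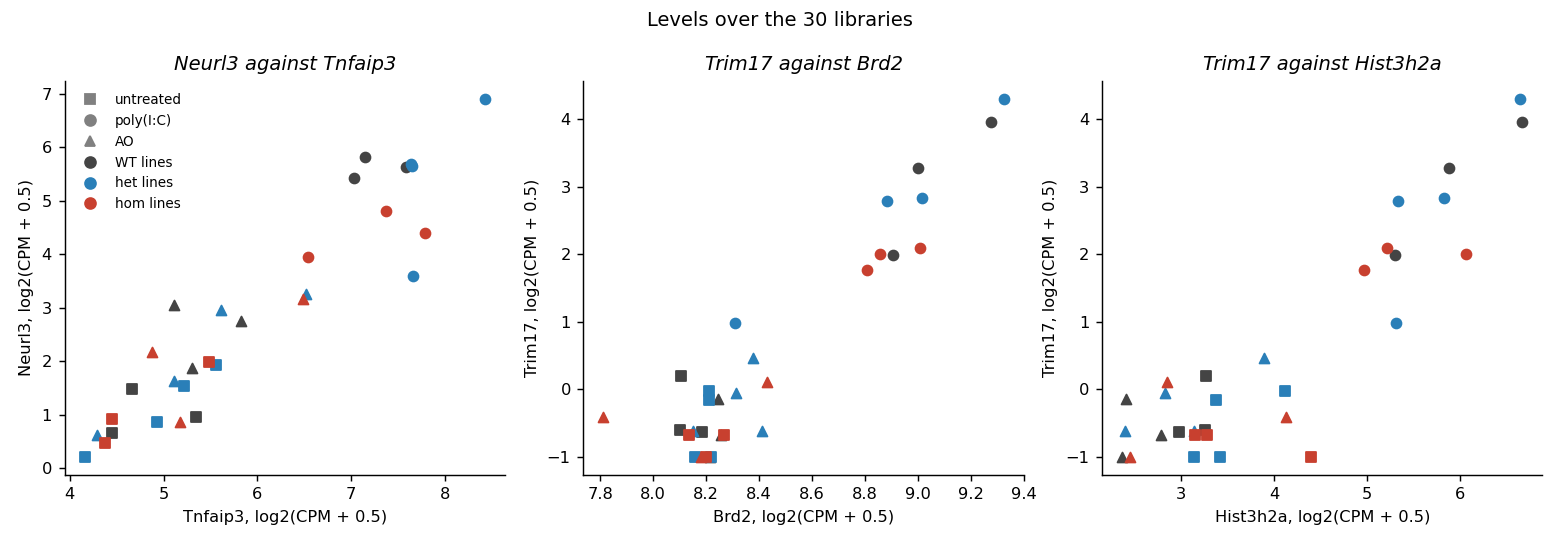
Level of Neurl3 against Tnfaip3 and of Trim17 against Brd2 and Hist3h2a over the 30 libraries, all as log2(CPM + 0.5); squares are untreated, circles poly(I:C) and triangles AO, and colours are genotypes as in the other plots. In each genotype both Trim17 and Hist3h2a are higher in poly(I:C) than in untreated libraries, with no overlap, and AO libraries have low values of both.

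Hist3h2a needs care beside Trim17, because both genes start at position 58954685 on the same strand and share 708 bases of exon. Their deposited counts show sharing of reads between genes: in 29 of 36 libraries the Trim17 value was not a whole number, and the same held for Hist3h2a, whereas Neurl3 was whole in all 36. Hist3h2a itself rose under poly(I:C), from 8.53 ± 0.971 to 66.1 ± 31.8 CPM in WT lines (SD, n = 3) and from 11.3 ± 3.76 to 58.5 ± 28.3 CPM in het lines (SD, n = 4), and its level in hom lines went from 12.7 ± 6.81 to 44.5 ± 18.9 CPM (SD, n = 3). The log2 change was 2.36 ± 0.40 in het lines (SE; adjusted p = 0.00142) and 1.81 ± 0.46 in hom lines (adjusted p = 0.0515, and 0.00092 with the line as a block, edgeR quasi-likelihood). On pooled counts Hist3h2a rose 7.97-, 4.63- and 3.49-fold in WT, het and hom lines, and Trim17 33.8-, 32.4- and 38.3-fold. Hist3h2a was thus the more abundant gene and rose less on this scale. How much of the Trim17 count came from Hist3h2a transcripts was not tested. Trim17 also shares 189 bases of exon with 2310058D17Rik on the opposite strand, which stood at 0.564 to 1.56 CPM on average in the 9 groups.

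Density libraries of WT line E1.5 measured the pair again, with 1 library a condition and so no test. The choice did not use these libraries, but E1.5 itself is a WT line that chose the pair. These libraries are therefore no independent support for the rise. Levels here are CPM of the library total. At high density Neurl3 stood at 3.38 CPM untreated, 56.8 CPM under poly(I:C) and 7.19 CPM under AO. The low-density libraries had 1.59 CPM untreated, 15.4 with poly(I:C) and 1.95 with AO. The library pair without a density label, at 1.47 and 47.1 CPM, was closer to high than to low density under poly(I:C). The poly(I:C) level was 3.69 times higher at high than at low density (95% exact counting interval 2.95 to 4.68), and the fold over untreated was 16.8 (13.3 to 21.5) at high and 9.71 (5.02 to 20.997) at low density.

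Trim17 stood at 0.439 CPM untreated, 9.29 with poly(I:C) and 0.156 with AO at high density, and at 0, 8.16 and 0.177 CPM at low density. Its poly(I:C) levels at the 2 densities were close, 1.14 times higher at high density (95% exact counting interval 0.809 to 1.63), and both were below the 14.3 CPM of the library without a label. At high density it was 21.1-fold higher than untreated (11.2 to 45.0), and at low density at least 17.2-fold higher, taking 3 counts as the floor of the untreated library, which had 0 (the exact 95% lower limit of this fold is 13.4). Under poly(I:C) the ratio of high to low density was 28.6 for Ifnb1 (14.5 to 66.6, from 700 and 8 counts), 4.42 for Cxcl10 (4.21 to 4.64), 2.12 for Tnfaip3 (1.92 to 2.35) and 1.22 for Hist3h2a (1.06 to 1.41). Density and library cannot be told apart with 1 library each, and the high-density libraries held 16474011 to 22756870 counts against 5391393 to 6307963 at low density.

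**Figure D5:**
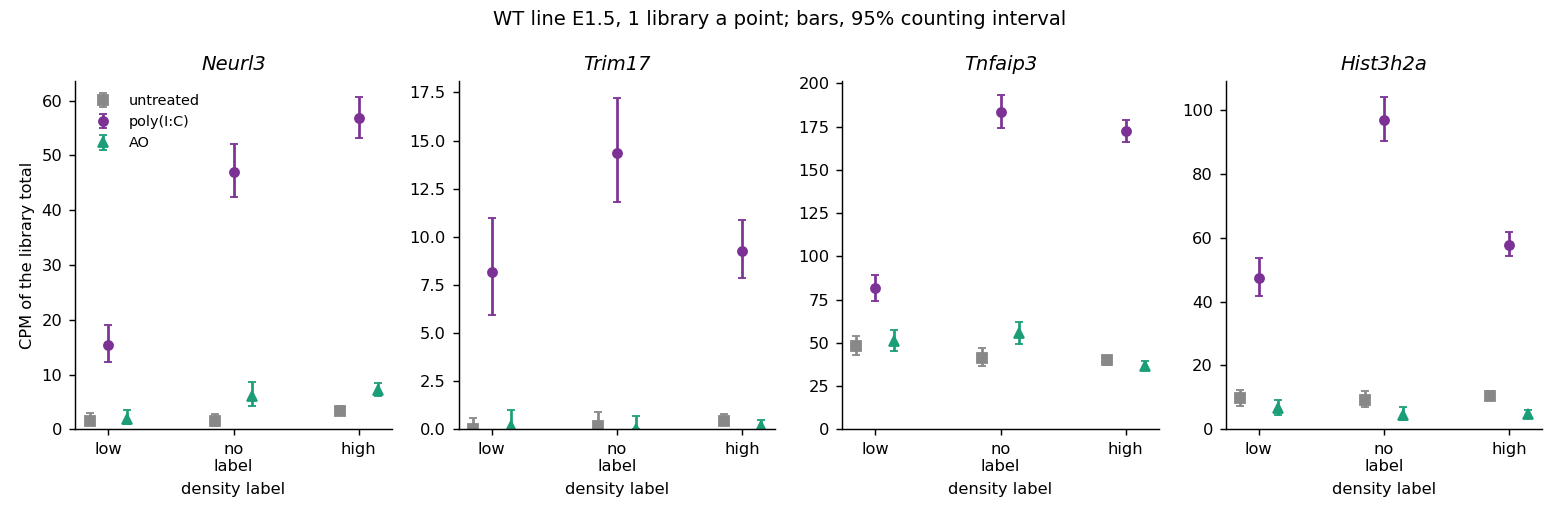
Level of Neurl3, Trim17, Tnfaip3 and Hist3h2a in WT line E1.5 by density label, as CPM of the library total, with 1 library a point and 95% Poisson counting intervals; grey squares are untreated, purple circles poly(I:C) and green triangles AO. Under poly(I:C) Neurl3 falls to 15.4 CPM at low density, while Trim17 stands at 8.16 CPM at low and 9.29 CPM at high density.

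Other genes of the 2 families were counted in the same fits. Of the 4 remaining Neuralized genes, 0 were called in het or hom lines under poly(I:C), with a median log2 change of -0.41 and -0.43 where the median of all genes was 0.00 in both. Of all genes 2.24% were called higher and 2.43% lower in het lines, and 0.554% and 0.726% in hom lines. With shares this small, 0 of 4 says nothing about the family. Neurl1a, a ligase of Notch ligands, differed by 0.39 ± 0.51 in het and 0.16 ± 0.58 in hom lines (log2, SE), Neurl2 by -0.56 ± 0.50 and -0.59 ± 0.56, and the centrosomal Neurl4 by -0.25 ± 0.12 and -0.27 ± 0.14. Neurl1b, which also acts on Notch ligands, was lower by 1.08 ± 0.59 and 1.15 ± 0.64 without passing. With the line as a block Neurl1b fell by 1.05 ± 0.33 in het lines (adjusted p = 0.0309) and by 1.21 ± 0.33 in hom lines (adjusted p = 0.0254, edgeR quasi-likelihood). The block called 8.97% of all genes lower in het and 4.09% in hom lines.

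Of 67 other TRIM genes 39 were tested. In het lines 3 rose and 1 fell, where 2.24% of all genes rose and 2.43% fell, and in hom lines 0 were called, where 0.554% and 0.726% of all genes were. The block raised this to 12 higher and 2 lower in het and to 3 higher and 1 lower in hom lines, against 8.81% of all genes higher and 8.97% lower in het and 5.71% and 4.09% in hom lines. Median log2 changes of the tested TRIM genes were 0.08 and 0.01 without the block. Trim21, a cytosolic antibody receptor, rose by 3.01 ± 0.59 in het lines (log2, SE; adjusted p = 0.00561), and Trim26 by 0.82 ± 0.18 (adjusted p = 0.00814, edgeR quasi-likelihood). Trim25, a ligase of the RNA sensor RIG-I, rose by 1.62 ± 0.46 (adjusted p = 0.0461) and Trim23 fell by 0.46 ± 0.12 (adjusted p = 0.0316, edgeR quasi-likelihood).

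In hom lines Trim21 differed by 1.34 ± 0.80, Trim25 by 0.90 ± 0.55 and Trim26 by 0.21 ± 0.21 (log2, SE). Trim21, Trim25 and Trim26 were among 6 TRIM genes lower in hom than in het lines under poly(I:C), by 3.61 ± 0.67, 2.25 ± 0.50 and 0.98 ± 0.20 (adjusted p = 0.0199, 0.0492 and 0.0199, edgeR quasi-likelihood). Of all genes 0.651% were lower, and these calls too were lost without any 1 hom line. Untreated, the same genes differed by -1.94 ± 0.73, -1.53 ± 0.51 and -0.37 ± 0.20 between hom and het lines (adjusted p = 1.0 for each, edgeR quasi-likelihood). Trim13, Trim28, Trim39 and Trim41, also named by rule, differed in het lines by 0.00 ± 0.23, 0.30 ± 0.11, -0.48 ± 0.18 and -0.21 ± 0.09 and did not pass.

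A wider list held 58 other ubiquitin ligases and editors of antiviral and NF-kB signalling, of which 56 were tested. In het lines 10 rose and 1 fell, and in hom lines 2 rose and 0 fell; with the block 22 rose and 3 fell in het lines and 9 rose and 0 fell in hom lines. The shares of all genes were 2.24% higher and 2.43% lower in het and 0.554% and 0.726% in hom lines, and with the block 8.81% and 8.97%, and 5.71% and 4.09%. Tnfaip3 rose by 2.86 ± 0.41 in het and 2.48 ± 0.47 in hom lines (log2, SE; adjusted p = 0.00037 and 0.0154, edgeR quasi-likelihood). Mul1, a ligase of the outer mitochondrial membrane, rose by 0.67 ± 0.10 and 0.51 ± 0.12 (adjusted p = 0.00041 and 0.0344, edgeR quasi-likelihood). Socs1, the substrate receptor that restrains cytokine signalling, rose by 3.19 ± 0.51 in het lines (adjusted p = 0.000892) and differed by 0.93 ± 0.64 in hom lines (adjusted p = 0.65, edgeR quasi-likelihood). Rnf5, a ligase of the adaptor STING, differed by -0.32 ± 0.16 and -0.45 ± 0.18 and did not pass.

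The chain from sensors to interferon receptors, 25 genes of which 25 were tested, had 5 higher and 0 lower in het lines and 0 called in hom lines; with the block 14 and 13 were higher and 0 lower. Of all genes 2.24% were higher in het and 0.554% in hom lines, and with the block 8.81% and 5.71%. Irf1, a transcription factor of interferon and NF-kB responses, rose by 2.89 ± 0.41 in het lines (log2, SE; adjusted p = 0.000352) and stood 1.85 ± 0.48 higher in hom lines (adjusted p = 0.0582, and 2.94e-05 with the block, edgeR quasi-likelihood). Ifih1, which encodes the sensor MDA5, rose by 1.92 ± 0.43 in het lines (adjusted p = 0.012, edgeR quasi-likelihood). Nfkb2 and Relb, subunits of NF-kB, rose by 0.81 ± 0.23 and 1.35 ± 0.33 in het lines (adjusted p = 0.0403 and 0.0206, edgeR quasi-likelihood). Stat2, which carries the interferon signal to the nucleus, was 1.59 ± 0.47 higher without passing (adjusted p = 0.0589), and passed with the block (adjusted p = 1.87e-07, edgeR quasi-likelihood).

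Of 7 genes for proteins that Neurl3 or Trim17 are known to act on, 0 were called in het or hom lines under poly(I:C) without the block, where 2.24% and 0.554% of all genes were higher. Mcl1 stood at 191 ± 4.91 CPM untreated and 225 ± 11.5 CPM under poly(I:C) in het lines (SD, n = 4), and at 211 ± 24.3 and 253 ± 21.8 CPM in the hom group (SD, n = 3). Zwint, of the kinetochore, differed by -0.15 ± 0.15 in het lines (log2, SE), Nfatc3 by -0.14 ± 0.15, Trim41 by -0.21 ± 0.09 and the transcription factor gene Zscan21 by -0.13 ± 0.21. With the block Mcl1 rose by 0.23 ± 0.08 (adjusted p = 0.0422), Irf7 rose by 1.98 ± 0.25 (adjusted p = 1.46e-05) and Nfatc4 fell by 0.65 ± 0.13 (adjusted p = 0.00176, edgeR quasi-likelihood) in het lines. In hom lines the block called Irf7 higher by 1.82 ± 0.60 (adjusted p = 0.0482) and Nfatc4 lower by 0.77 ± 0.15 (adjusted p = 0.00307, edgeR quasi-likelihood). Between hom and het lines under poly(I:C), Irf7 differed by -4.60 ± 0.997 (log2, SE; adjusted p = 0.0464, edgeR quasi-likelihood), a call lost without any 1 hom line, and untreated by -4.79 ± 1.23 without passing (adjusted p = 0.396, edgeR quasi-likelihood). Irf7 was 1.25 ± 0.208 CPM in untreated hom lines against 25.2 ± 2.11 CPM in WT lines (SD, n = 3 each).

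The protein-coding genes nearest to Neurl3 are Uggt1, 19877 bases away on the same strand, and Arid5a, 33054 bases away on the opposite strand. Arid5a encodes an RNA-binding protein that stabilises Il6 mRNA. With poly(I:C), Arid5a went from 28.6 ± 2.06 to 64.7 ± 7.45 CPM in WT (SD, n = 3), from 24.7 ± 13.6 to 65.5 ± 32.1 CPM in het (SD, n = 4) and from 30.2 ± 3.95 to 52.5 ± 9.53 CPM in the hom group (SD, n = 3). It rose by 1.42 ± 0.40 in het lines (log2, SE; adjusted p = 0.0449) and stood 0.80 ± 0.46 higher in hom lines (adjusted p = 0.549, and 0.00681 with the block, edgeR quasi-likelihood). Uggt1 and, farther off, Kansl3 differed by 0.15 ± 0.16 and 0.03 ± 0.12 in het lines, and Fer1l5 stayed between 0.328 and 0.72 CPM on average in all 9 groups.

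Around Trim17, the ligase genes Rnf187 and Trim11 differed by 0.22 ± 0.12 and -0.02 ± 0.18 in het lines (log2, SE), and Zfp39 and 2810021J22Rik by 0.67 ± 0.21 and 0.13 ± 0.23, without passing. Hist3h2ba, a core histone gene 5152 bases upstream, stood at 0.159 ± 0.275 CPM untreated and 2.13 ± 1.29 CPM under poly(I:C) in WT lines (SD, n = 3), and differed by 1.07 ± 0.70 in het lines (adjusted p = 0.471, edgeR quasi-likelihood). Gm12258 fell by 1.17 ± 0.31 in het and 1.67 ± 0.36 in hom lines (adjusted p = 0.0277 and 0.0228, edgeR quasi-likelihood). Btnl10 had no counts in any of the 30 libraries.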

How the data were processed

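Expected counts per gene, 1 table per library, were deposited by the authors, who used STAR, RSEM and mm10, per the submitters' processing notes. Versions and annotation release: not given in the sources used here. Libraries were made with a stranded mRNA kit, per the labels' protocols. RSEM divides reads that fit several genes. The values were rounded to counts; 49326 of 49585 genes matched GENCODE vM21 (GRCm38). The 30 libraries of 9 groups were fitted in edgeR 4.0.16 (R 4.3.3): TMM, filterByExpr (minimum count 10, total 15), 13364 genes, quasi-likelihood F test, Benjamini-Hochberg adjustment over all of them. SEs are Wald errors of the fitted differences. The labels name the line of each library, so libraries of a line are paired; deviations of paired libraries correlated by 0.345 to 0.782 over 30 pairs. P-values measure the spread between lines, pooled over groups; the fit without the block takes libraries of 1 line as independent. Named genes are the pair, the 6 most correlated with each, the 3 smallest p per list and contrast, all Neuralized, substrate and readout genes, and protein-coding genes within 100 kb, of which 1 is not reported here. Fitted folds were checked on simulated data. Alternatives were RLE factors, no filter, DESeq2 1.42.0, the block, the compared groups alone, E1 or E2 as a covariate, other pseudocounts and leaving out each line. The pair and the lists were chosen with earlier results of these data known.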

Additional observations from a re-analysis of the deposited data

How the results depend on the processing

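The poly(I:C) rise in het lines kept its direction and its adjusted p under 0.05 in all 10 alternatives for Neurl3 (log2 4.69 to 5.18). For Trim17 it did so in all 9 that gave a value (3.88 to 6.01). In hom lines the log2 rise kept its direction, but the call was lost in the fit of the compared groups alone for Neurl3 (3.45, adjusted p = 0.125) and Trim17 (5.07, adjusted p = 0.106), and when 1 line was left out (Neurl3 3.30 to 3.96, lost without E2.2 and without E2.9; Trim17 4.53 to 5.50, lost without any 1 of the 3 lines); fewer samples enter these fits (edgeR quasi-likelihood). With the line as a replicate block, the pairing that the labels give, Neurl3 under AO in het lines passed (1.32); the block changed no other call on the pair, and it cannot be fitted for levels of hom against het lines. The untreated difference of Neurl3 between hom and het lines, 0.04, turned to -0.043 with E1 or E2 as a covariate and -0.0097 in DESeq2, and ran from -0.70 to 0.41 when 1 line was left out. The difference in the Trim17 response, 0.04, ran from -0.94 to 1.18 when 1 line was left out. The cause was not tested for these. Trim17 failed the filter in several fits of the compared groups alone, which give no value. The fit of het lines under poly(I:C) is among them. Genes called under poly(I:C) numbered 624 in het and 171 in hom lines, from 99 (compared groups alone) to 2376 (block) and from 0 (compared groups alone; without E2.9) to 1309 (block) over the alternatives; under AO they ran from 511 to 3671 and from 3 to 3965. Hom against het lines under poly(I:C) gave 88 genes, 174 without E2.6, 158 in DESeq2 and 0 without any 1 hom line or in the compared groups alone; untreated, 2 genes, from 0 to 42. At 0 to 4 counts in untreated libraries, depth limits every fold of Trim17.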
